A study of Homo sapiens with 6 samples.

Results

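NUMB, its paralog NUMBL, the Notch receptors NOTCH1, NOTCH2 and NOTCH3, the ligands JAG1 and JAG2, and the target genes HES1 and HEY1 were examined in PC-9 cells with and without RBM10 knockdown (KD). The genes were chosen by name and not by a rule on their measured values, though earlier results of these data were known. Every isoform listed under these symbols was taken. They make up 9 of the 26334 genes and 18 of the 51398 isoforms quantified.

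PC-9 cells are an established EGFR-mutant line from a human lung adenocarcinoma. Transcriptome sequencing covered untreated cells that carried a scrambled control shRNA (shScr), a first shRNA against the splicing factor RBM10 (shRBM10#1) or a second one (shRBM10#2), with 2 libraries per condition and 6 in all. The control is shScr in the labels and in the study's description of its isoform analysis, and parental PC-9 in its methods, and shScr was used. The labels do not say whether the libraries of a condition came from separate cultures, so the p-values measure the spread between these libraries, which may be technical. Both shRNAs were set against shScr and against each other, and the 4 RBM10 KD libraries were also compared with shScr as one group. All comparisons with shScr share the same 2 control libraries.

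Notch receptors are cleaved when a ligand of the Jagged or Delta family on a neighboring cell binds them, and the released intracellular domain joins the DNA-binding protein RBPJ in the nucleus to turn on targets such as the HES and HEY repressors. NUMB is an endocytic adaptor that binds the receptor through its phosphotyrosine-binding (PTB) domain and limits Notch signaling. Alternative splicing of its transcript changes the PTB domain and the proline-rich region (PRR), and RBM10 is known in lung cancer cells to promote skipping of the PRR exon.

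RBM10 itself was lower in both knockdowns, at 83.2 and 86.2 CPM (counts scaled by TMM-normalized library size) in shScr, 59.8 and 56.4 CPM after shRBM10#1 and 27.2 and 26.9 CPM after shRBM10#2. These levels correspond to 68.6% and 31.9% of shScr with shRBM10#1 and shRBM10#2 (edgeR FDR = 0.000228 and 5.1e-08), and the second shRNA lowered it further than the first, by a log2 fold change (FC) of −1.11 between them (FDR = 3.65e-06, edgeR). With both shRNAs as one group RBM10 itself did not pass (FDR = 0.146, edgeR), because that fit counts the gap between the shRNAs as spread between libraries. The libraries held between 31953729 and 37557507 expected counts. The mean fragment was 231 nt in shScr replicate 2 and 265 to 281 nt in the other libraries. All 6 epithelial marker genes were abundant, with a summed level of 22790 to 28963 TPM, whereas the 4 markers of the alveolar lineage summed to 0.31 to 0.82 TPM, so the lung lineage of the cells was not visible in these markers. The 3 immune markers summed to 99.7 and 117 TPM in shScr and to at most 81.8 TPM in RBM10 KD, nearly all of it CD68, while PTPRC and CD3E stayed at or below 0.11 TPM. The 4 fibroblast markers summed to 2.02 to 2.94 TPM and the 3 endothelial markers to 6.02 to 12.7 TPM, and 0 of these were at 0 in all libraries. The part of these levels in the results was not tested. In bulk RNA, a lower level in every cell and a loss of the transcript from some of the cells cannot be told apart.

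NUMB lies on the minus strand of chromosome 14 (chr14:73275107-73458617, GRCh38) and was quantified as 4 RefSeq isoforms that combine 2 alternative coding exons. The PRR exon is exon 12 of 13 in the longest isoform (chr14:73279281-73279424, minus strand, 144 nt, 48 codons), with a GC content of 54.9%. The PTB exon is exon 6 of 13 (chr14:73316390-73316422, minus strand, 33 nt, 11 codons), with a GC content of 36.4%. Both exons have a length divisible by the codon size, so skipping keeps the reading frame. NM_001005743 holds both exons, NM_003744 lacks the PTB exon, NM_001005744 lacks the PRR exon, and NM_001005745 lacks both. The sequences from the GENCODE 29 transcripts are shown because the isoforms differ at these sites. In the exon lines, capitals mark the alternative exon and lower case the 12 bases of each neighboring exon. In the junction lines, capitals mark the first 12 bases of the downstream exon, which joins the upstream exon when the alternative exon is skipped.

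NUMB PRR exon: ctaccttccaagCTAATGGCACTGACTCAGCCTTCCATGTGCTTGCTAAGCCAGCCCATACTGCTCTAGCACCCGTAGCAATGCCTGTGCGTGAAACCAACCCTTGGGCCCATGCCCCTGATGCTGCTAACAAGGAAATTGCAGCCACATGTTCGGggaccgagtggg
NUMB PRR skipping junction: ctaccttccaagGGACCGAGTGGG
NUMB PTB exon: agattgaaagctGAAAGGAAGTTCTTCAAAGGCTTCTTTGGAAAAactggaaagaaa
NUMB PTB skipping junction: agattgaaagctACTGGAAAGAAA

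NUMB isoforms without the PRR exon made up a small share of the NUMB transcripts in all libraries and a smaller share in each RBM10 KD library than in either shScr library. The share was 11.3% and 13.1% of NUMB TPM in shScr, 5.51% and 11.0% with shRBM10#1, and 3.91% and 7.02% with shRBM10#2. The groups did not overlap, although shRBM10#1 replicate 2 came within a fraction of a percentage point of shScr replicate 1. In rounded expected counts, the isoforms without the exon had 212 and 231 counts in shScr, 100 and 237 counts with shRBM10#1, and 89 and 167 counts with shRBM10#2. The Wilson 95% interval of the count share was 9.65% to 12.4% in shScr replicate 1, 9.35% to 11.9% in shRBM10#1 replicate 2 and 3.04% to 4.56% in shRBM10#2 replicate 1. These intervals cover counting error only and leave out the uncertainty of assigning reads to isoforms.

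The mean share without the PRR exon was 12.2% ± 1.28 (SD, n = 2) in shScr and 6.85% ± 3.02 (SD, n = 4) in RBM10 KD, a difference of −5.39 percentage points. An exact two-sided permutation test gave p = 0.133, the smallest value that 4 against 2 libraries allow. The difference was −4.01 percentage points with shRBM10#1 and −6.77 with shRBM10#2, each with exact permutation p = 0.333, again the smallest the design allows. Without shRBM10#1 replicate 1, the shRBM10#1 difference was −1.29 percentage points. Of all single isoforms with a mean share of 5% to 95%, 9.2% were lower in RBM10 KD without overlap, as were 18.4% with shRBM10#1 and 22.8% with shRBM10#2. A usage test of isoforms summed by the PRR exon was added after the data were seen. The skipped class changed relative to the gene by a log2 of −1.17 with shRBM10#2 (unadjusted p = 0.0531, FDR = 0.498, edgeR diffSpliceDGE). With shRBM10#1 this value was −0.56 (unadjusted p = 0.564, FDR = 1.0, same edgeR test). The share was thus lower in all 4 RBM10 KD libraries, but the permutation design cannot reach 0.05 and the usage test did not pass.

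The 4 NUMB isoforms were also examined singly. NM_001005743, with both exons, had 9.14 and 10.8 TPM in the shScr replicates, against 11.1 and 13.7 TPM for shRBM10#1 and 14.3 and 11.1 TPM for shRBM10#2. Each RBM10 KD library was above both shScr libraries, but the share of all isoforms with this pattern was not counted. The log2 FC was 0.42 ± 0.146 (SE) for RBM10 KD (unadjusted p = 0.027, FDR = 0.403, edgeR). An unadjusted p below 0.05 was found for 10.9% of all isoforms in this comparison (edgeR). NM_003744, which lacks the PTB exon, had 13.4 and 12.8 TPM under shScr, 13.5 and 9.05 TPM under shRBM10#1, then 12.8 and 15.0 TPM under shRBM10#2, with overlapping groups. NM_001005744, without the PRR exon, had 2.88 and 2.15 TPM in shScr, 1.43 and 2.80 TPM in the shRBM10#1 libraries, and 0.58 and 1.97 TPM in the shRBM10#2 libraries. NM_001005745, without both exons, was at 1.42 TPM in shScr replicate 2 and 0.52 TPM in shRBM10#2 replicate 1, and was listed at 0 TPM in the other libraries, with expected counts of at most 0.24.

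The share of NUMB TPM without the PTB exon was 52.7% and 52.4% in shScr, 51.9% and 35.4% with shRBM10#1, and 47.2% and 53.5% with shRBM10#2. One library, shRBM10#1 replicate 2, was far below the others. The mean difference for RBM10 KD was −5.53 percentage points (exact permutation p = 0.533), and without shRBM10#1 replicate 2 it was −1.66. With shRBM10#1 it was −8.88 (exact permutation p = 0.333, the smallest the design allows), larger than for the PRR exon. Both shRBM10#1 libraries were below shScr, as were 18.4% of all single isoforms with a mean share of 5% to 95%. Without shRBM10#1 replicate 2, the shRBM10#1 difference was −0.62. With shRBM10#2 the difference was −2.18, with overlap. Of the 5 genes with at least 2 isoforms past the filter (NUMB, NUMBL, NOTCH2, JAG2 and HEY1), 0 had a change of isoform usage at an FDR below 0.05 in any comparison (edgeR diffSpliceDGE). For NUMB the unadjusted p was 0.135 with shRBM10#1, 0.718 with shRBM10#2 and 0.594 for RBM10 KD. Over all 6405 genes tested, usage was called in 0.515% for RBM10 KD, 0.172% with shRBM10#1, 2.75% with shRBM10#2 and 1.92% between the shRNAs.

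**Figure D1:**
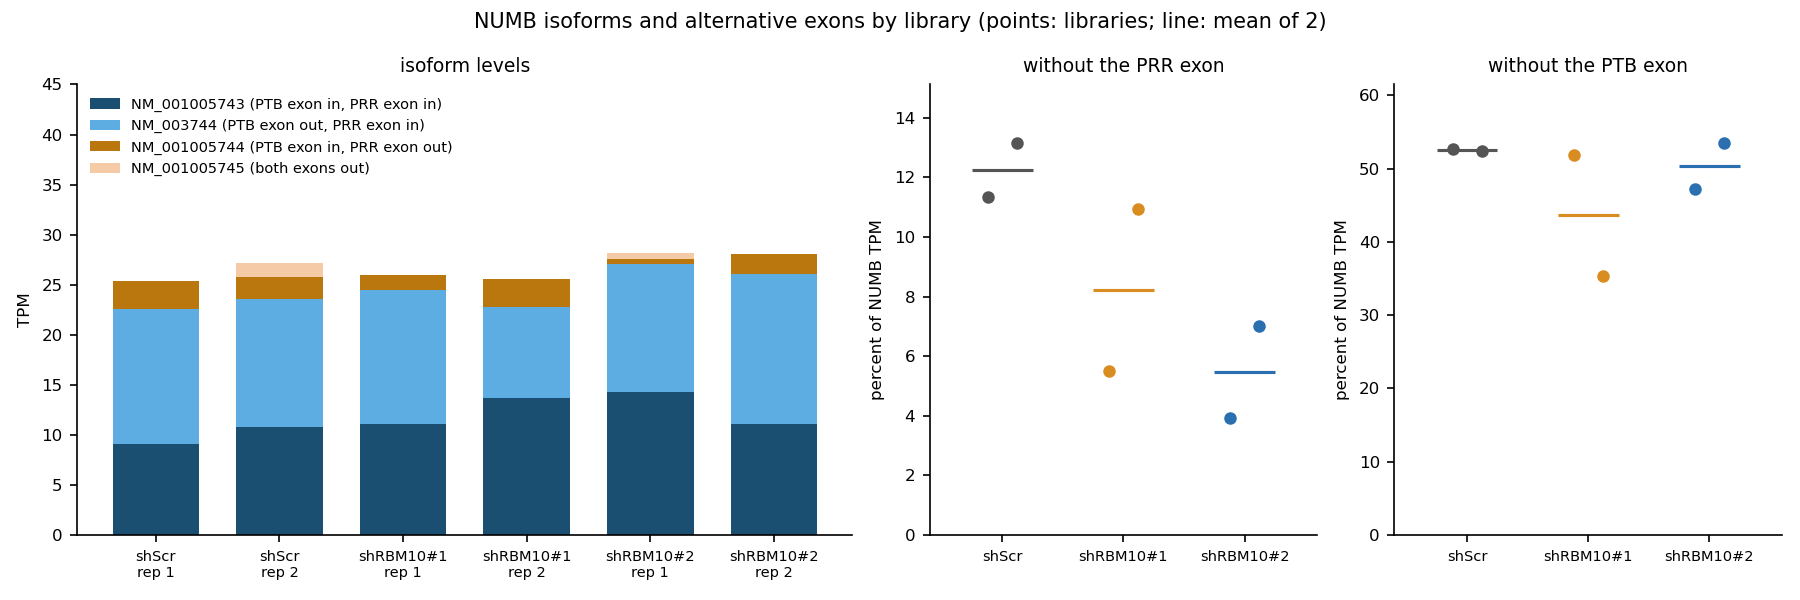
Left, stacked bars give the TPM of the 4 NUMB isoforms in each of the 6 libraries. Middle and right, points give the percent of NUMB TPM from isoforms without the PRR exon or without the PTB exon in each library, with lines at the mean of 2 libraries: the PRR share was 11.3% and 13.1% in shScr and at most 11.0% in the RBM10 KD libraries, whereas the PTB share of RBM10 KD as one group overlapped with shScr. With shRBM10#1 alone the PTB share did not overlap, at 51.9% and 35.4% against 52.7% and 52.4% in shScr.

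Total NUMB did not pass the test and was at 59.5 and 55.4 CPM in the shScr replicates, against 59.8 and 60.9 CPM for shRBM10#1 and 64.3 and 64.3 CPM for shRBM10#2. In CPM, all RBM10 KD libraries were above both shScr libraries, by a narrow margin for shRBM10#1. In TPM, NUMB was at 25.4 and 27.2 TPM in shScr and overlapped with 25.95 and 25.57 TPM for shRBM10#1, whose mean was then lower (25.8 against 26.3 TPM). The log2 FC was 0.07 ± 0.0679 (SE) with shRBM10#1 (FDR = 0.535) and 0.16 ± 0.0675 with shRBM10#2 (unadjusted p = 0.0329, FDR = 0.0973, edgeR), with a 95% interval of 0.02 to 0.31 for the latter. The shRNAs as one group (FDR = 0.495, edgeR) and against each other (FDR = 0.349, edgeR) gave no call either. Isoforms were also summed by the PRR exon after the data were seen. Those with the exon had a log2 FC of 0.27 ± 0.0665 with shRBM10#2 (unadjusted p = 0.00905, FDR = 0.101, edgeR), against −1.01 ± 0.438 for those without it (FDR = 0.272, edgeR). By the root mean square distance of centered log2 CPM over the 6 libraries, the closest of 9461 genes to NUMB were FH, CBX3 and ILF2, at distances of 0.0104, 0.0136 and 0.0174, against a median of 0.139. The closest genes lie below the median by the way they were picked, and NUMB itself spanned only 0.214 log2 CPM. FH encodes the mitochondrial fumarate hydratase, CBX3 a heterochromatin protein and ILF2 a double-stranded RNA-binding partner. Shared regulation with NUMB was not tested.

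NUMBL, the second NUMB-type adaptor (chr19:40665905-40690972, minus strand), did not pass in any of the 4 comparisons. It had 22.1 and 21.6 CPM under shScr, 21.2 and 20.1 CPM under shRBM10#1, then 20.8 and 22.7 CPM under shRBM10#2. Its log2 FC was −0.09 ± 0.0849 (SE) with shRBM10#1 and −0.01 ± 0.084 with shRBM10#2 (FDR = 0.55 and 0.958, edgeR), with 95% intervals of −0.27 to 0.10 and −0.19 to 0.17. Its isoform NM_001289980 ranged from 0 to 3.31 TPM with no order by condition, NM_004756 from 6.22 to 10.1 TPM, and NM_001289979 was listed at 0 in every library.

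Across the 9 gene totals, 1 fell with shRBM10#1 (JAG1) and 5 fell with shRBM10#2 (NOTCH1, NOTCH2, JAG1, JAG2 and HEY1), while 0 rose. A gene was called at an FDR below 0.05 over the 14217 genes tested. Of all genes, 14.0% were called with shRBM10#1 and 25.9% with shRBM10#2, of which 6.91% and 13.9% of all genes were lower. In RBM10 KD as one group, JAG1 was again the single member that fell, against 1.62% of all genes called and 1.08% lower. Between the shRNAs, NOTCH1 and JAG2 were lower with shRBM10#2, against 25.5% of all genes called and 14.5% lower. The median log2 FC of the members was −0.09, −0.32 and −0.19 for shRBM10#1, shRBM10#2 and RBM10 KD, against 0.01, 0.01 and 0.01 for all genes. With the added criterion of an absolute log2 FC above 1, which the study used for isoforms, 0 members passed, against 0.394% of all genes in RBM10 KD, 1.88% with shRBM10#1, 1.3% with shRBM10#2 and 1.19% between the shRNAs. Of the 2737 genes with a length of 5000 to 12000 nt, the range that holds NOTCH1, NOTCH2, NOTCH3, JAG1 and JAG2, 10.2% were lower with shRBM10#1 and 16.9% with shRBM10#2. Members whose CPM did not overlap with shScr numbered 5 with shRBM10#1, 7 with shRBM10#2 and 4 in RBM10 KD, and this was so for 53.6%, 66.6% and 29.4% of all genes. Between the shRNAs it held for 5 members and for 65.1% of all genes.

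**Figure D2:**
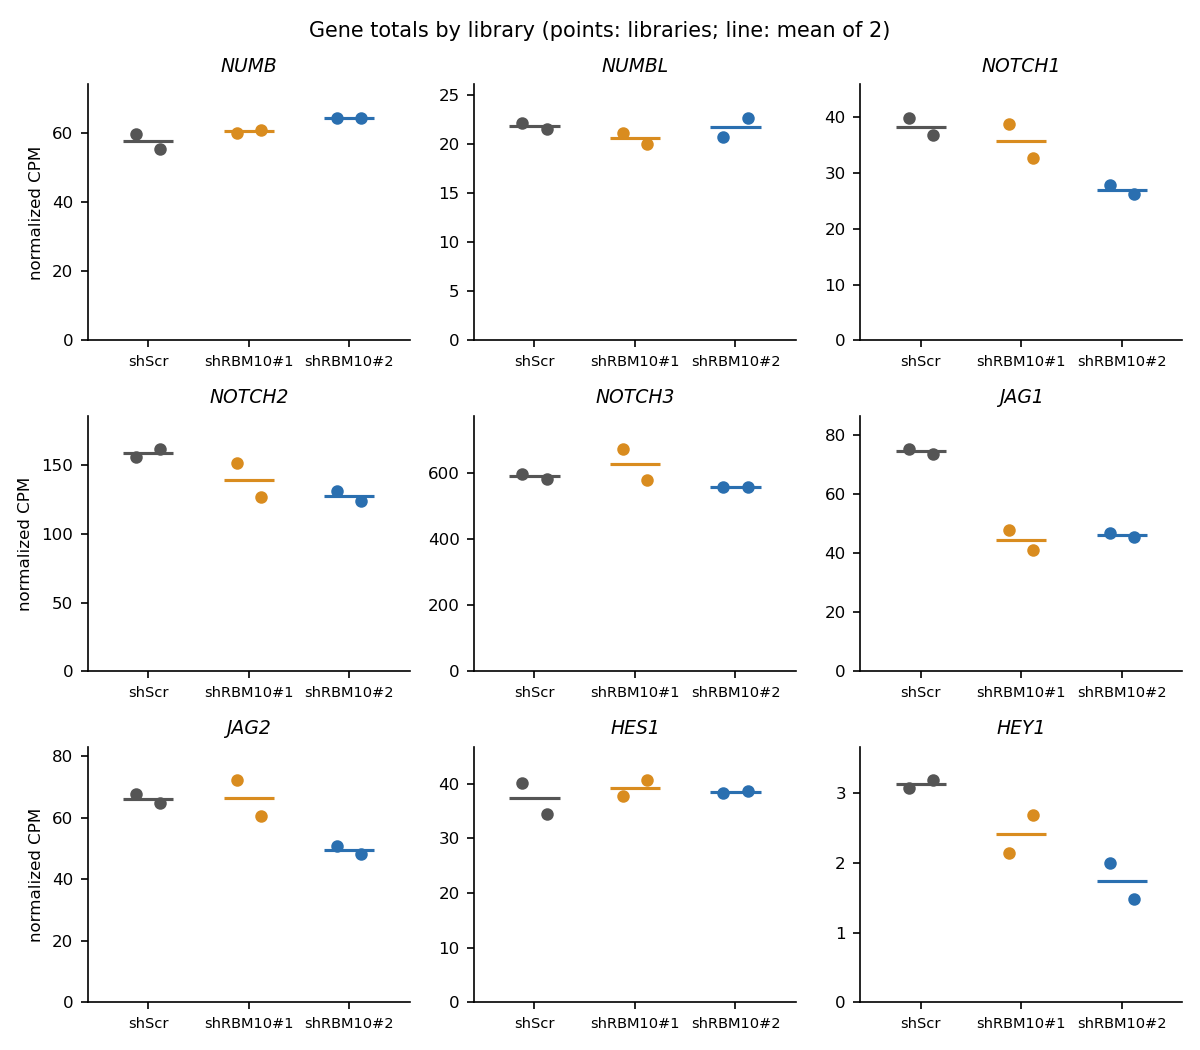
Normalized CPM of each gene total in every library (vertical axis from 0), grouped by condition, with lines at the mean of 2 libraries. JAG1 lies at 73.5 CPM or above in shScr and at 47.9 CPM or below in all RBM10 KD libraries, whereas HES1 and NUMBL overlap.

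Among the receptors, NOTCH1 and NOTCH2 fell with shRBM10#2 and NOTCH3 did not pass. NOTCH1 (chr9:136494433-136545786, minus strand) had 39.9 and 36.7 CPM in shScr, 38.7 and 32.7 CPM in the shRBM10#1 libraries, and 27.8 and 26.2 CPM in the shRBM10#2 libraries. Both shRBM10#2 libraries were below the other 4. The log2 FC with shRBM10#2 was −0.50 ± 0.0903 (SE, FDR = 0.00215, edgeR), which left 70.6% of the shScr level. With shRBM10#1 it was −0.10 ± 0.0894 (FDR = 0.485, edgeR), and the shRNAs differed by −0.40 (FDR = 0.00721, edgeR).

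NOTCH2 (chr1:119911553-120069626, minus strand) had 156 and 162 CPM in the shScr replicates, against 152 and 127 CPM for shRBM10#1 and 131 and 124 CPM for shRBM10#2. Each RBM10 KD library was below both shScr libraries, but the shRBM10#1 libraries were spread. The log2 FC was −0.32 ± 0.0808 (SE) with shRBM10#2 (FDR = 0.013, edgeR) and −0.19 ± 0.0808 with shRBM10#1 (FDR = 0.133, edgeR). The shRBM10#2 call was lost without shScr replicate 2, shRBM10#2 replicate 1 or shRBM10#2 replicate 2. Each of these fits leaves 1 library in a group, and the log2 FC stayed between −0.36 and −0.27 under all alternatives tried. Without shRBM10#1 replicate 1, which also leaves 1 library in a group, NOTCH2 passed with shRBM10#1 as well, at a log2 FC of −0.33. NOTCH2 shares sequence with its paralog NOTCH2NL, so the division of reads between them is uncertain. NOTCH2NL, itself in the wider list, fell with shRBM10#2 by a log2 FC of −0.48 (FDR = 0.00338, edgeR). The short isoform NM_001200001 contributed at most 1.4% of NOTCH2 TPM.

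NOTCH3 (chr19:15159038-15200981, minus strand) had 597 and 582 CPM under shScr, 672 and 579.5 CPM under shRBM10#1, then 557 and 558 CPM under shRBM10#2. shRBM10#1 replicate 1 stood above the other 5 libraries. The log2 FC was 0.09 ± 0.0738 (SE) with shRBM10#1 (FDR = 0.478) and −0.08 ± 0.0738 with shRBM10#2 (FDR = 0.465, edgeR), with a 95% interval of −0.24 to 0.08 for shRBM10#2. Between the shRNAs it was −0.17 (FDR = 0.116, edgeR), and this passed without shRBM10#1 replicate 2 (−0.27, FDR = 0.00984, edgeR).

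The ligand JAG1, an activating partner of the Notch receptors (chr20:10637684-10673999, minus strand), fell with both shRNAs. It had 75.2 and 73.5 CPM in shScr, 47.9 and 41.0 CPM in the shRBM10#1 libraries, and 46.8 and 45.3 CPM in the shRBM10#2 libraries, with no overlap between RBM10 KD and shScr. Its log2 FC reached −0.74 ± 0.0792 (SE) with shRBM10#1 (FDR = 8.19e-05) and −0.69 ± 0.0786 with shRBM10#2 (FDR = 0.000176, edgeR), which left 59.7% and 61.9% of the shScr level. The log2 FC between the shRNAs was 0.05, with a 95% interval of −0.12 to 0.23 (FDR = 0.664, edgeR). In RBM10 KD as one group the log2 FC was −0.72 ± 0.0851 (FDR = 0.0119, edgeR). This log2 FC stayed between −0.74 and −0.67 under all alternatives tried, but the call was lost when either shScr library was left out. Those fits hold 1 control library, so the lost call cannot be read as a trait of JAG1. JAG1 has 1 isoform, NM_000214, which had a log2 FC of −0.69 and an FDR of 0.0391 with shRBM10#2 in the isoform test (edgeR). Of the 16 member isoforms tested, it was the only one below an FDR of 0.05 in any of the 4 comparisons (edgeR). Of all isoforms, 0.0302% were below it with shRBM10#1, 2.26% with shRBM10#2, 2.25% between the shRNAs and 0.0% in RBM10 KD. The study's criteria of an FDR below 0.05 and an absolute log2 FC above 1 were met by 0 member isoforms, against 0.0227%, 0.491%, 0.359% and 0.0% of all isoforms in the same order. At an unadjusted p below 0.05 there were 2 member isoforms with shRBM10#1, 4 with shRBM10#2, 3 between the shRNAs and 3 in RBM10 KD (edgeR), against 14.5%, 21.5%, 20.3% and 10.9% of all isoforms.

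JAG2, a second Jagged ligand (chr14:105140981-105168824, minus strand), fell with shRBM10#2. It had 67.7 and 64.6 CPM in the shScr replicates, against 72.2 and 60.6 CPM for shRBM10#1 and 50.7 and 48.3 CPM for shRBM10#2. The 2 shRBM10#2 libraries were below the other 4. The fitted log2 FC was −0.42 ± 0.0843 (SE) with shRBM10#2 (FDR = 0.004, edgeR), against 0.0043 ± 0.0837 with shRBM10#1 (FDR = 0.982, edgeR), and the shRNAs differed by −0.42 ± 0.0842 (FDR = 0.00372, edgeR). The shRBM10#2 call was lost without shRBM10#2 replicate 2, with 1 library left in that group (log2 FC −0.38). JAG2 has 2 isoforms, and NM_145159 lacks exon 10 of 26 (chr14:105150991-105151104, minus strand, 114 nt, 38 codons). The share of JAG2 TPM without this exon was 28.6% and 25.1% in shScr, 33.5% and 27.0% with shRBM10#1, and 24.4% and 43.2% with shRBM10#2, with overlapping groups (exact permutation p = 0.667 for RBM10 KD).

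Of the targets, HEY1 fell with shRBM10#2 and HES1 did not pass. HES1, a repressor directly activated by Notch (chr3:194136145-194138732, plus strand), had 40.2 and 34.5 CPM under shScr, 37.7 and 40.7 CPM under shRBM10#1, then 38.3 and 38.6 CPM under shRBM10#2. The groups overlapped, and the log2 FC was 0.07 ± 0.0837 (SE) with shRBM10#1 and 0.04 ± 0.0834 with shRBM10#2, with 95% intervals of −0.11 to 0.25 and −0.14 to 0.22 (FDR = 0.63 and 0.746, edgeR). HEY1, on chromosome 8, was the least abundant member per transcript length. It had 3.08 and 3.19 CPM in shScr (100 and 105 counts), 2.14 and 2.69 CPM after shRBM10#1 (67 and 99 counts) and 1.99 and 1.49 CPM after shRBM10#2 (74 and 57 counts).

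The HEY1 groups did not overlap, since each RBM10 KD library lay below the shScr pair. A log2 FC of −0.85 ± 0.220 (SE) was fitted with shRBM10#2 (FDR = 0.0144, edgeR) and of −0.37 ± 0.214 with shRBM10#1 (FDR = 0.283, edgeR), and the difference between the shRNAs did not pass (−0.48, FDR = 0.137, edgeR). The call with shRBM10#2 was lost without shScr replicate 1, shScr replicate 2 or shRBM10#2 replicate 2. Each of these fits leaves 1 library in a group, and the log2 FC stayed between −1.07 and −0.65 under all alternatives tried. Its main isoform NM_012258 had 1.95 and 2.21 TPM in shScr, 1.54 and 1.70 TPM in the shRBM10#1 libraries, and 1.45 and 1.07 TPM in the shRBM10#2 libraries. NM_001040708, with at most 14.1 expected counts, had 0.22 and 0.34 TPM in shScr, 0 and 0.16 TPM with shRBM10#1, and 0 in both shRBM10#2 libraries. Isoform usage of HEY1 had an unadjusted p of 0.0378 with shRBM10#2 (FDR = 0.415, edgeR diffSpliceDGE). NM_001282851 was listed at 0 in every library.

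**Figure D3:**
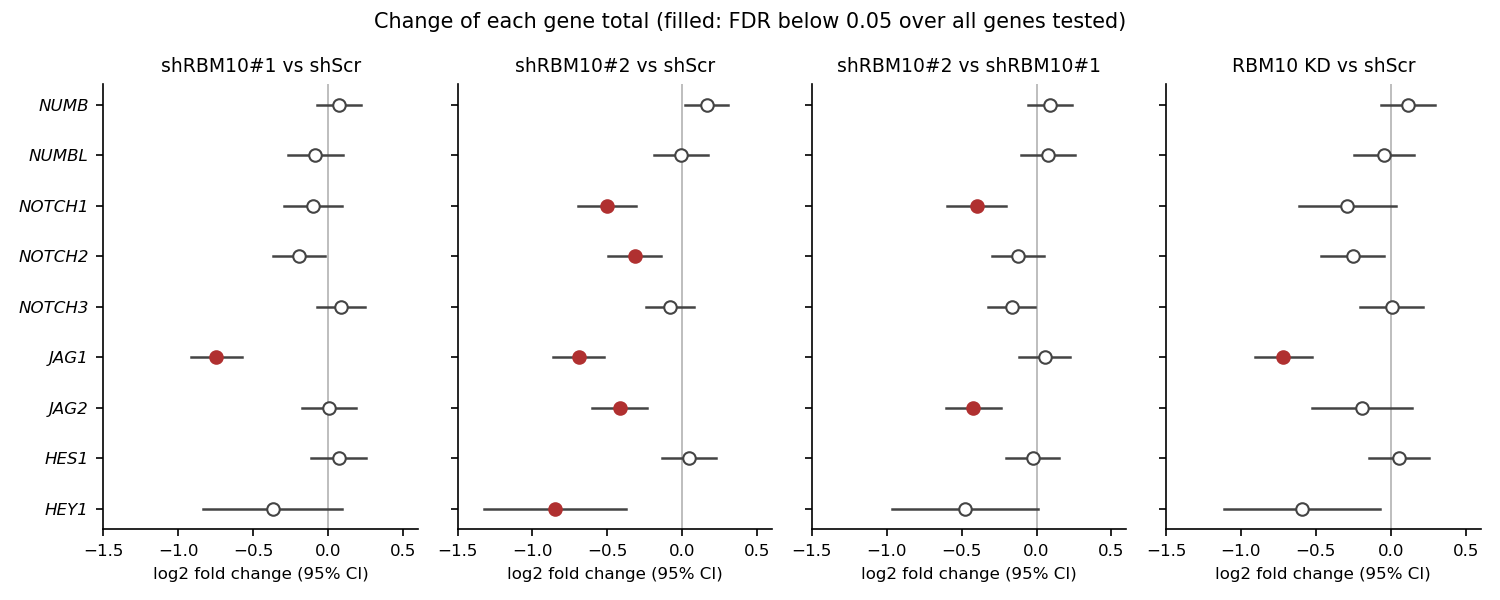
Log2 FC of each gene total in 4 comparisons (horizontal axis; bars are 95% intervals, filled points passed an FDR of 0.05). JAG1 passed in 3 of the 4 comparisons, while NOTCH1 and JAG2 passed with shRBM10#2 and between the shRNAs.

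Per transcript length, NOTCH3 was the most abundant member in shScr at 116 ± 9.87 TPM (SD, n = 2), followed by HES1 at 47.4 ± 1.39, NUMB at 26.3 ± 1.24, NOTCH2 at 22.0 ± 2.90, JAG1 at 19.9 ± 1.70 and JAG2 at 18.3 ± 1.22 TPM. NUMBL was at 10.2 ± 0.870, NOTCH1 at 6.50 ± 0.290 and HEY1 at 2.36 ± 0.269 TPM. The ranges of NOTCH2 and JAG1, and of JAG1 and JAG2, overlapped in shScr. With each shRNA JAG2 was above JAG1 without overlap, at 17.2 ± 2.57 against 11.1 ± 1.48 TPM with shRBM10#1 and 13.1 ± 0.431 against 11.8 ± 0.304 TPM with shRBM10#2. NUMB, NUMBL, NOTCH1, NOTCH3, JAG1 and JAG2 had a higher TPM but a lower CPM in shScr replicate 2, the library with shorter fragments, than in replicate 1. The tests of genes, isoforms and isoform usage rest on counts, and the permutation tests of exon shares on TPM.

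The wider pathway was followed in 77 other Notch genes, of which 75 were tested. With shRBM10#1, 6 rose and 5 fell (14.7%), with shRBM10#2, 5 rose and 14 fell (25.3%), and in RBM10 KD as one group 1 rose and 1 fell. Over all genes these shares were 14.0%, 25.9% and 1.62%, and the list medians of the log2 FC were 0.02, −0.07 and −0.01, against 0.01 in each comparison for all genes. NEURL1B, a ubiquitin ligase that acts on Notch ligands, rose from 48.0 and 47.7 CPM in shScr to 67.4 and 69.8 CPM after shRBM10#1 and 66.9 and 58.7 CPM after shRBM10#2. Its log2 FC was 0.52, 0.39 and 0.46 with shRBM10#1, with shRBM10#2 and in RBM10 KD (FDR = 0.000688, 0.0032 and 0.0474, edgeR).

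LFNG, a glycosyltransferase that modifies Notch receptors, was at 21.1 and 18.7 CPM under shScr, 34.8 and 44.0 CPM under shRBM10#1, then 24.9 and 24.5 CPM under shRBM10#2. Its log2 FC was 0.99 with shRBM10#1 and 0.31 with shRBM10#2 (FDR = 8.96e-05 and 0.0496), and the shRNAs differed by −0.68 (FDR = 0.000904, edgeR). With shRBM10#1 the ubiquitin ligase LNX1, which acts on NUMB, rose (log2 FC 0.48), and the target HES7 (−0.59) and the ubiquitin ligase CBL (−0.34) fell. With shRBM10#2 the ligand-like DNER (−1.62), which had less than 1 CPM in all libraries, and the co-repressor TLE1 (−0.58) fell. The endocytic adaptor EPS15 (0.35) and the glucosyltransferase POGLUT1 (0.33) rose with shRBM10#2. Of the neuroendocrine genes, a program that Notch targets hold down in lung, NEUROD1 and INSM1 were listed at 0 in all libraries and CHGA and SYP were below 1 TPM.

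**Figure D4:**
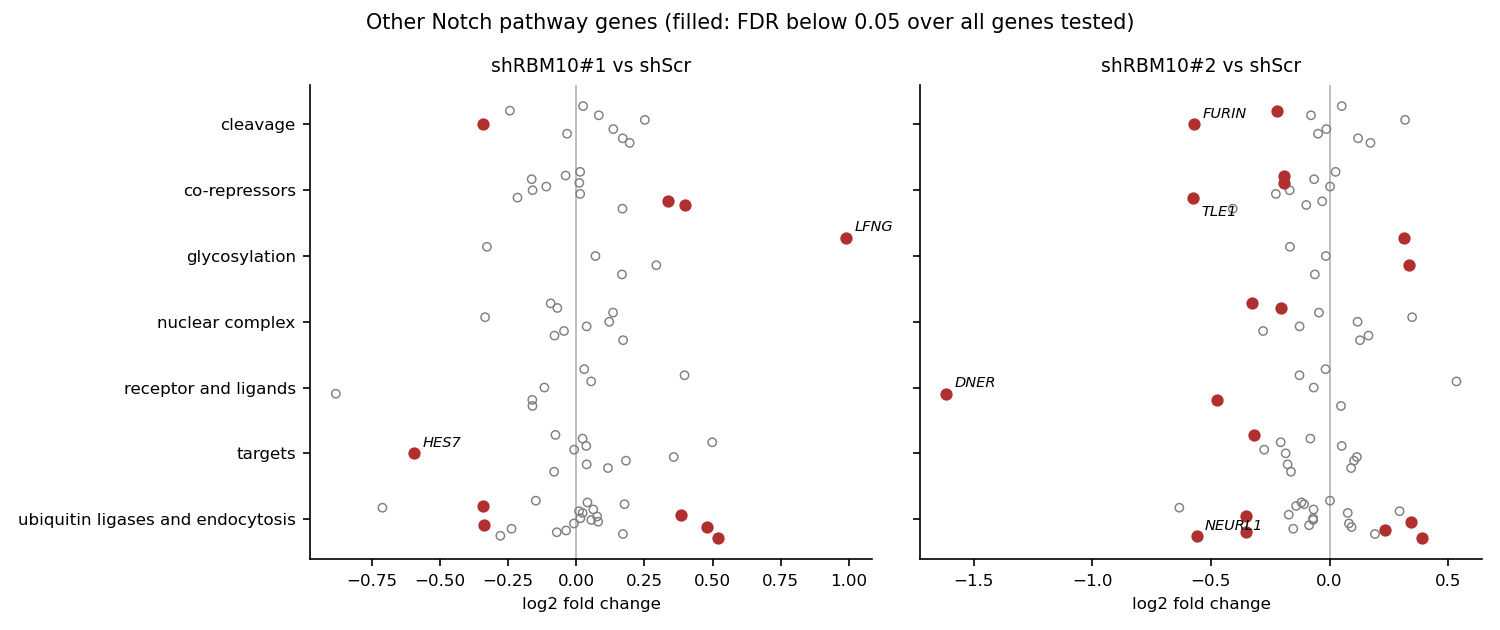
Log2 FC of 74 other Notch pathway genes with shRBM10#1 (left) and shRBM10#2 (right), by functional class (rows). Filled points passed an FDR of 0.05, 10 genes on the left and 18 on the right; 1 of the 75 tested genes, counted as called in the text, is not drawn, and the called genes farthest from 0 are named.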

How the data were processed

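Untreated PC-9 cells (shScr, shRBM10#1 and shRBM10#2) were sequenced in 2 libraries per condition, and groups were taken from the labels. The authors deposited RSEM isoform tables that hold the expected count, TPM, FPKM, the percent of its gene's expression given by each isoform, and effective length. FPKM and percent columns deposited by the authors were not used. Per the submitters' processing notes, STAR 2.4, RSEM 1.2.29, edgeR and hg19 were named, without a stated role. RSEM divides reads shared by isoforms, so isoform values depend on that division. The strand protocol is not given in the sources used here.

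Expected counts were summed per gene symbol, rounded to whole numbers, scaled by TMM and filtered with filterByExpr by condition. They were tested with the quasi-likelihood test of edgeR 4.0.16 in R 4.3.3, with Benjamini-Hochberg adjustment over all genes or isoforms tested. The fit for each shRNA used 1 coefficient per condition over all 6 libraries. Isoform usage was tested with diffSpliceDGE. DESeq2 1.42.0 and limma 3.58.1 gave alternatives. NUMB shares used TPM and exact two-sided permutation tests (SciPy 1.17.1 in Python 3.11.15). Procedures were tested on simulated data. Exon positions and sequences came from GENCODE 29 (GRCh38), without conversion between builds.

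Same-numbered libraries did not deviate together (correlations over genes of −0.12 to −0.0496), so the replicate numbers were not treated as pairs. The chi-square of replicate gene counts was 3.24 to 12.5 per degree of freedom, above sampling noise. All members and their isoforms were described. Of the wider list, genes were named by the highest and lowest log2 FC among those called, at most 3 each. Some genes of the lists are counted but not reported here. NOTCH2NL was added beside NOTCH2 after its values were seen, and the tests of isoforms summed by exon were added after the data were seen. The members, lists and rules were chosen with earlier results of these data known.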

Additional observations from a re-analysis of the deposited data

Results flagged for a closer look

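The 2 shRNAs differed in their effect on JAG2 and NOTCH1. For JAG2, the log2 FC of shRBM10#2 relative to shRBM10#1 was −0.42 (FDR = 0.00372, edgeR), with 50.7 and 48.3 CPM against 72.2 and 60.6 CPM. For NOTCH1 it was −0.40 (FDR = 0.00721, edgeR), with 27.8 and 26.2 CPM against 38.7 and 32.7 CPM. RBM10 was also lower with shRBM10#2, by a log2 FC of −1.11, and its part in these differences was not tested. Both calls were lost without shRBM10#2 replicate 2, which leaves 1 library in that group. The log2 FC stayed between −0.55 and −0.29 for JAG2 and between −0.52 and −0.27 for NOTCH1 under all alternatives tried.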

How the results depend on the processing

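JAG1 fell with each shRNA under all alternatives tried (log2 FC −0.86 to −0.63 with shRBM10#1 and −0.72 to −0.66 with shRBM10#2), as did NOTCH1 with shRBM10#2 (FDR up to 0.044, edgeR or DESeq2). Leaving out 1 library moved the number of members called from 1 to between 0 and 1 for RBM10 KD, from 1 to between 1 and 2 with shRBM10#1, from 5 to between 2 and 5 with shRBM10#2, and from 2 to between 0 and 4 between the shRNAs; a lone library is then assumed to vary like the other groups. All genes called then numbered 0 to 413, 985 to 2626, 954 to 4566 and 918 to 3736, in place of 230, 1996, 3685 and 3628. In the edgeR fit of all 6 libraries used for the calls, an added absolute log2 FC above 1 left 0 members in all 4 comparisons. Among the alternatives, HEY1 with shRBM10#2 reached a log2 FC of −1.07. With one coefficient per condition, 4 members passed in RBM10 KD (NOTCH1, NOTCH2, JAG1 and HEY1), and 2610 genes in place of 230. Without the fold criterion, 1 member isoform passed with shRBM10#2. With the replicate block, 1, 1, 5 and 2 members were called in RBM10 KD, shRBM10#1, shRBM10#2 and between the shRNAs. Over all genes the block called 52, 1755, 3209 and 3175, in place of 230, 1996, 3685 and 3628. The exact permutation p of the NUMB PRR share in RBM10 KD was 0.222 with the block. After seeing the data, the numbers of shRBM10#1 were also crossed, because its deviations from shScr correlated at −0.12: 1 member and 2227 genes were then called.

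DESeq2 called 718 genes in place of 230 in RBM10 KD and 271, 529, 810 and 708 isoforms in place of 0, 6, 130 and 95 (RBM10 KD, shRBM10#1, shRBM10#2, between the shRNAs), the block 0 in each, and at least 10 counts 5, 99, 251 and 182. Usage was called by limma diffSplice in 41, 42, 571 and 339 genes, with the block in 13, 4, 83 and 48 and with at least 10 counts in 9, 7, 171 and 81, in place of 33, 11, 176 and 123. Over 450 alternative values of the 9 log2 FC in 4 comparisons, 416 kept their direction and side of the threshold, 11 lost and 7 gained a call, and 16 changed sign, all for values that were not called. These are given as ranges of the log2 FC without single libraries. In RBM10 KD, NOTCH3 ranged from −0.061 to 0.035 and HES1 from −0.049 to 0.17, with −0.01 for NOTCH3 without shScr replicate 2. With shRBM10#1, NOTCH1 ranged from −0.23 to 0.018, NOTCH3 from −0.023 to 0.19, JAG2 from −0.13 to 0.13 and HES1 from −0.035 to 0.18. With shRBM10#2, NUMBL ranged from −0.071 to 0.054 and HES1 from −0.063 to 0.16. Between the shRNAs, NOTCH2 ranged from −0.25 to 0.0097, JAG1 from −0.056 to 0.17 and HES1 from −0.082 to 0.029. JAG2 with shRBM10#1 also changed sign with no filter on low counts (−0.00010) or at least 10 counts in every library (−0.0051). The PTB share difference with shRBM10#2 ranged from −5.32 to 0.947 percentage points. With an offset for gene length, also added then, NOTCH3 passed between the shRNAs (−0.19, FDR = 0.0355, edgeR). The PRR share difference in RBM10 KD ranged from −6.76 to −4.41 without single libraries.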
